A study of Rattus norvegicus with 48 samples.

Results

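The genes described here encode the channels that carry potassium, calcium and chloride ions across cell membranes. They were chosen as every probe set with 1 gene symbol that begins with Kcn, Cacn or Clcn in the platform annotation, apart from a pair of genes not analysed here. This gave 93 genes, each with 1 probe set, out of 8797 probe sets in the table. By family there were 11 inward rectifier potassium channels, 10 two-pore domain potassium channels, 25 pore subunits of voltage-gated potassium channels and 6 pore subunits of calcium- or sodium-activated potassium channels. A further 14 were potassium channel auxiliary subunits, 9 were calcium channel alpha 1 subunits, 13 were calcium channel alpha 2 delta, beta or gamma subunits, and 5 were members of the ClC chloride family.

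The arrays measured total kidney RNA of male rats, aged 12 weeks in the labels, of 4 strains named F, L, FL and LF, whose letters the labels do not explain. In each strain, rats were gavaged daily with indole-3-carbinol (100 mg per kg) for 7 days (day 7) or 10 days (day 10), or with vegetable oil alone (day 0). Indole-3-carbinol, found in cabbage and related plants, gives rise in the stomach to ligands of the aryl hydrocarbon receptor, a transcription factor. Each of the 12 strain and day groups had 4 arrays, 48 in all, and the treatment protocol counts 8 rats per group. Whether RNA was pooled across rats is not given in the labels. The labels give no genotype or transgene beyond the strain names.

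Potassium channels set the membrane voltage of tubule cells and return to the blood or the urine the potassium that the sodium pump brings in, so that sodium, chloride and calcium transport along the nephron depend on them. Voltage-gated calcium channels admit the calcium that contracts the arterioles and pericytes of the kidney and controls renin release, and their auxiliary subunits bring the pore to the membrane. ClC proteins move chloride across the basolateral membrane of the distal nephron or exchange it for protons in endosomes and lysosomes. Many other members of these families are best known from nerve and heart.

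Kcnt1, Cacnb2, Kcnab1 and Kcne1 were the members called between treated and carrier kidneys in the mean of the 4 strains. Their promoter windows are shown because the compound given yields ligands of a receptor with a known DNA core motif. Action of that receptor on these genes was not tested. The windows are RefSeq's on GRCr8, 250 bases before to 50 after an annotated start, and capitals mark GCGTG or its reverse complement CACGC, the core of the aryl hydrocarbon receptor response element. They lie at chr3:29081089-29081388 (plus strand, the first of 2 windows of Kcnt1), chr17:82472965-82473264 (plus strand, the first of 2 windows of Cacnb2), chr2:151614301-151614600 (plus strand, Kcnab1) and chr11:45076984-45077283 (minus strand, Kcne1).
Kcnt1: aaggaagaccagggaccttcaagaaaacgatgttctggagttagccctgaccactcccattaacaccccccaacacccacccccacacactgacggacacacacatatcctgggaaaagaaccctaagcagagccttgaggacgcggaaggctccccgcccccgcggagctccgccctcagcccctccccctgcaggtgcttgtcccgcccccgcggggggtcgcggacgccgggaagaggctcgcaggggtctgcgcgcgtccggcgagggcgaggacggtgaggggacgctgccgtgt
Cacnb2: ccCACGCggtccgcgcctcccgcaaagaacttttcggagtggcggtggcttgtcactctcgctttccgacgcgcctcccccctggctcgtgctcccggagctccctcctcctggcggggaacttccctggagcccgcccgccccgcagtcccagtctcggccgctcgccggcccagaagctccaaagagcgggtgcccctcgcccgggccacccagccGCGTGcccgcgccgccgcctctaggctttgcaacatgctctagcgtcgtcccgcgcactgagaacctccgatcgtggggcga
Kcnab1: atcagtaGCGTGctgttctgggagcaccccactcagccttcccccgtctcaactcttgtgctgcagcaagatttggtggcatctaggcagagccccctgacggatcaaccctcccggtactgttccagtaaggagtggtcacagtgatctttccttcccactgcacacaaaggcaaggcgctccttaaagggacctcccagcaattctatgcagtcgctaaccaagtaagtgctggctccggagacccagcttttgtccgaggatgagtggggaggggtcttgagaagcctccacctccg
Kcne1: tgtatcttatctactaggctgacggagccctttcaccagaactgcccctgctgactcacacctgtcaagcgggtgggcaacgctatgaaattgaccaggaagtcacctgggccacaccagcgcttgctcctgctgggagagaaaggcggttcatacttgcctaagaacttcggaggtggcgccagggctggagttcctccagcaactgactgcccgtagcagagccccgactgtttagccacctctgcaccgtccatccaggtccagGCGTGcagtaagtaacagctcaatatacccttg
The motif was found 0 times in the Kcnt1 window, 2 times in that of Cacnb2 and 1 time each in those of Kcnab1 and Kcne1. A window was listed for 64 of the 93 members. Over their 73 windows the motif stood on either strand in 38.4%, against 29.7% of all 33469 windows, and in the first window of each gene in 35.9% of members against 31.1% of all genes. A match is a description of these letters and not a site of binding.

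Signals are log2 values, and levels of different probe sets cannot be set against each other. Of the 93 members, 20 lay among the dimmest 25% of all probe sets and 73 above. The within-group SD had a median of 0.18 over the members, against 0.20 over all probe sets, and ranged from 0.07 for Cacna1c to 0.61 for Kcna3, which was named for this extreme. The kidney markers Umod (12.53 to 13.02), Lrp2 (11.59 to 12.08) and Slc12a1 (10.67 to 11.44) were bright on all 48 arrays. Array medians lay between 5.66 and 6.06, and the SD over probe sets of an array, called the array spread below, between 2.29 and 2.54. The spread averaged 2.41 ± 0.05 over the 16 day 7 arrays and 2.45 ± 0.05 over the 16 day 0 arrays (SD). The replicate number in the array names is taken here as the array run, which is an assumption. This gives 12 arrays in each of 4 runs and every group in every run, so differences are also given within runs. The within-run values average to the tested difference, so their signs are not a separate test.

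After 7 days of indole-3-carbinol, 4 of the 93 channel genes were lower in the mean of the 4 strains and 0 were higher. Kcne1, the single-pass partner of the Kcnq1 potassium channel, fell most, and Kcnt1, the pore of a sodium-activated potassium channel, Kcnab1, a cytoplasmic beta subunit of Kv1 channels, and Cacnb2, a beta subunit of calcium channels, fell by smaller amounts. The falls lay between 0.19 and 0.43 on the log2 scale, that is to between 0.875 and 0.742 of the day 0 signal. The 4 members are 4.3% of the 93, against 4.94% of all 8797 probe sets (435), and the lower calls were 3.75% of all probe sets (330). The test was limma's moderated test with Benjamini-Hochberg adjustment over all probe sets at a threshold of 0.05. With the array run as a block, a pairing assumed from the replicate numbers, 7 members were called and 976 of all probe sets. Kidney RNA is a mixture, so fewer cells of a type and less RNA per cell cannot be told apart.

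Kcnt1 (probe set 7225339) ranged from 7.15 to 7.79 with a median of 7.54 over the 16 day 7 arrays, and from 7.49 to 8.14 with a median of 7.82 over the 16 day 0 arrays. Treated arrays were lower on the whole, with overlap between the days. In F kidneys the arrays read 7.67, 7.65, 7.53 and 7.54 at day 7, all below the 8.05, 7.95, 7.81 and 7.89 at day 0. In L kidneys they read 7.56, 7.58, 7.66 and 7.40 at day 7, against 7.83, 7.67, 7.99 and 7.54 at day 0. Only the lowest day 0 array of L reached into its day 7 range. In FL kidneys Kcnt1 read 7.79, 7.63, 7.15 and 7.50 at day 7 and 8.14, 7.84, 7.65 and 7.81 at day 0, and in LF kidneys 7.41, 7.33, 7.19 and 7.53 at day 7 and 7.53, 7.72, 7.86 and 7.49 at day 0. Both strains overlapped at the edges. The fall was -0.29 ± 0.079 (log2, SE, adjusted p = 0.0237), lower in the mean of 4 of 4 strains. Within runs 1 to 4 it was -0.28, -0.25, -0.45 and -0.19. The adjusted p was 0.0693 with the array spread as a covariate, 0.103 with the 5 lowest-spread arrays left out and 0.0508 without FL day 0 replicate 1. Without replicate 1, 2 or 3 of every group it was 0.0567, 0.187 and 0.16.

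Cacnb2 (probe set 7160423) ranged from 4.62 to 5.07 with a median of 4.90 at day 7, against 4.84 to 5.37 with a median of 5.07 at day 0. Arrays of both days lay between 4.84 and 5.07. In LF kidneys the day 7 arrays read 4.89, 4.90, 4.68 and 4.98, all below the 5.17, 5.29, 5.10 and 5.03 of day 0. In L kidneys they read 4.95, 5.01, 5.07 and 4.90 at day 7, against 5.31, 5.37, 5.26 and 4.93 at day 0, where the single low carrier array lay inside the treated range. FL arrays read 5.04, 4.82, 4.82 and 4.89 at day 7 and 5.10, 5.03, 4.96 and 5.15 at day 0. F arrays overlapped most, with 5.01, 4.86, 5.0 and 4.62 at day 7 and 4.84, 5.05, 4.93 and 5.01 at day 0. Cacnb2 fell by 0.19 on the log2 scale (SE 0.053, adjusted p = 0.0245), with lower means in 4 of 4 strains and within-run differences of -0.13, -0.29, -0.17 and -0.18. Its adjusted p was 0.0782 with the 5 lowest-spread arrays left out, 0.052 without LF day 0 replicate 2, 0.0512 without LF day 7 replicate 3 and 0.0551 without F day 7 replicate 4. Without replicate 2 or 3 of every group it was 0.339 and 0.137.

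Kcnab1 (probe set 7194678) differed between strains as described further on, so its days are compared strain by strain. In LF kidneys it read 5.80, 6.07, 5.74 and 5.95 at day 7, all below the 6.60, 6.53, 6.42 and 6.25 of day 0. In FL kidneys it read 5.04, 5.04, 5.42 and 5.09 at day 7 and 5.60, 5.29, 5.25 and 5.61 at day 0, with 1 treated array inside the carrier range. The strains F and L showed broad overlap. F arrays read 5.82, 5.57, 5.47 and 5.06 at day 7 and 5.59, 5.57, 5.59 and 5.36 at day 0. L arrays read 6.18, 5.92, 6.08 and 5.95 at day 7 and 6.26, 6.17, 6.24 and 5.84 at day 0. The mean fall was -0.25 ± 0.071 (adjusted p = 0.0333), with -0.30, -0.24, -0.20 and -0.25 within runs 1 to 4. It was lower in 4 of 4 strain means, by 0.05 in F and by 0.56 in LF. Its adjusted p was 0.0796 with the array spread as a covariate, and between 0.0502 and 0.0714 when any of 12 single arrays was left out. These were replicates 1 and 4 of FL day 0, 1 and 2 of LF day 0, 1 and 3 of L day 0, 1 and 4 of FL day 7, 3 of LF day 7, 4 of F day 7 and 2 and 4 of L day 7. Without replicate 1, 2 or 3 of every group the adjusted p was 0.098, 0.212 and 0.141.

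Kcne1 (probe set 7091804), which pairs with Kcnq1 in the heart and, in mouse, in the proximal tubule, had the widest spread of the 4, with a within-group SD of 0.36. It ranged from 4.87 to 6.89 with a median of 6.18 at day 7, against 6.20 to 7.02 with a median of 6.57 at day 0. The lowest array was LF day 7 replicate 3 at 4.87. LF kidneys read 5.86, 6.46, 4.87 and 6.05 at day 7 and 6.36, 6.71, 6.49 and 6.20 at day 0, and F kidneys 6.22, 6.56, 6.01 and 6.17 at day 7 and 6.60, 6.72, 7.02 and 6.55 at day 0. In F only 1 treated array reached the carrier range. L kidneys read 5.52, 6.53, 6.40 and 6.19 at day 7 and 6.25, 6.80, 6.31 and 6.77 at day 0, and FL kidneys 6.53, 6.01, 6.03 and 6.89 at day 7 and 6.67, 6.40, 6.34 and 7.01 at day 0. No strain was without overlap. Kcne1 fell by 0.43 (log2, SE 0.12, adjusted p = 0.0343), with -0.44, -0.27, -0.71 and -0.31 within runs 1 to 4 and lower means in 4 of 4 strains. The call was lost with array medians subtracted (adjusted p = 0.0562), a second quantile normalization (0.0766), the array spread as a covariate (0.0741), with the 5 lowest-spread arrays left out (0.0626) and when any of 10 single arrays was dropped (0.0531 to 0.0673). These were replicates 1 and 4 of FL day 0, 2 of LF day 0, 3 of F day 0, 2 of L day 0, 3 of FL day 7, 3 of LF day 7, 3 and 4 of F day 7 and 1 of L day 7. Without replicate 1, 2, 3 or 4 of every group the adjusted p was 0.0974, 0.0922, 0.194 and 0.0707.

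**Figure D1:**
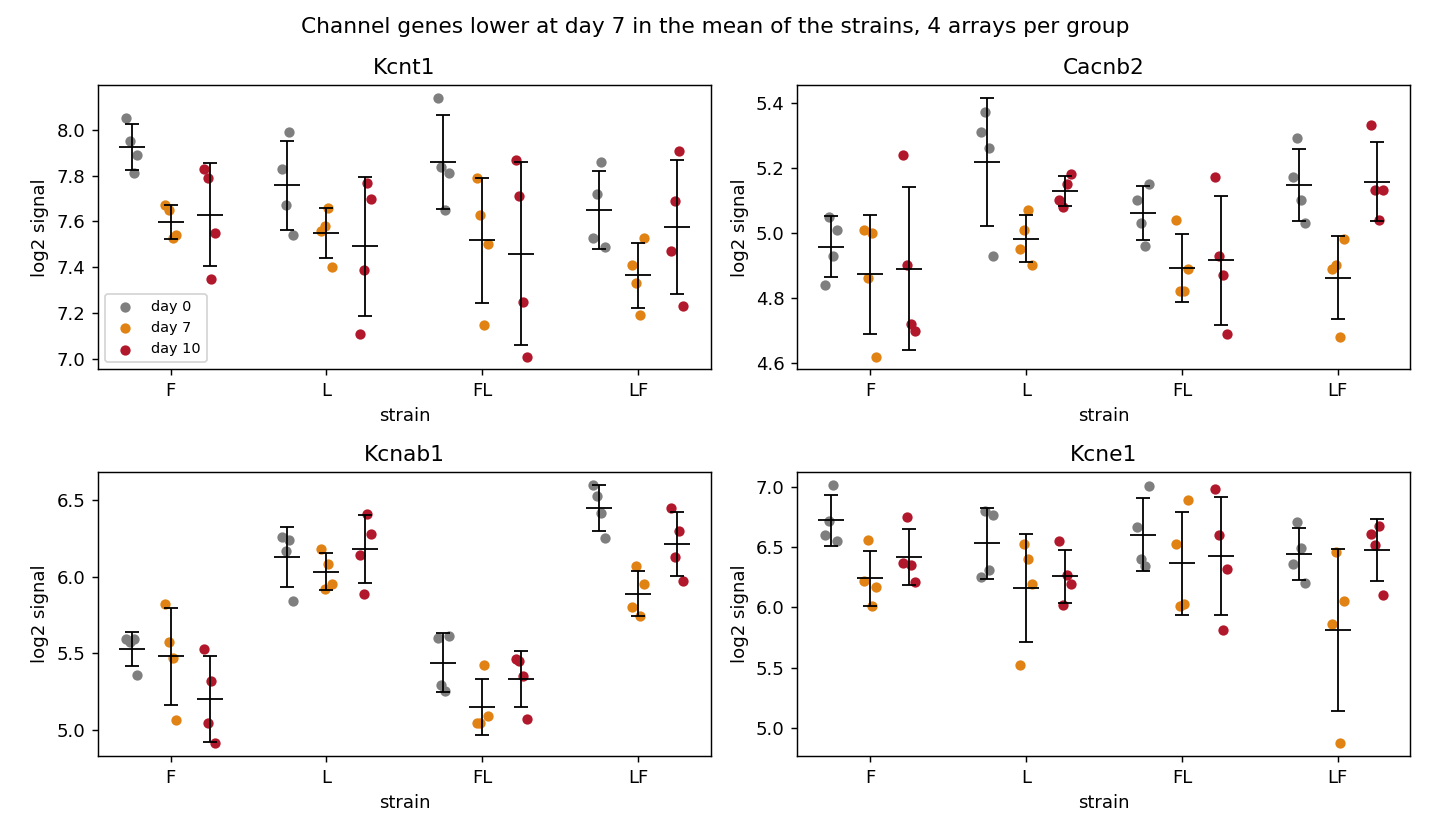
Log2 signal of the 4 channel genes called lower at day 7, by strain and day (grey day 0, orange day 7, red day 10), with 1 point per array and bars for the mean ± SD of 4 arrays. In Kcnt1 the F arrays and in Cacnb2 and Kcnab1 the LF arrays of day 7 all lie below those of day 0, and Kcne1 overlaps in every strain.

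The inward rectifier Kcnj2, neighbour of Kcnj16 in the GRCr8 annotation, lay just outside the threshold at -0.36 ± 0.12 (adjusted p = 0.0665). LF kidneys read 4.72, 5.29, 5.29 and 5.42 at day 7, all below the 5.97, 5.87, 5.58 and 6.01 at day 0. Within runs the Kcnj2 difference was -0.69, -0.52, -0.15 and -0.09. Kcnj2 passed with the run as a block, as did Cacna1a, the pore of the P/Q-type calcium channel (lower), and Kcnip2, a partner of Kv4 channels (higher), both named after their values were seen. Kcnq1, the pore that Kcne1 joins, stood at 0.16 ± 0.064 at day 7 (adjusted p = 0.136), with 0.10 to 0.22 within the 4 runs. Kcnq1 passed in the upward direction with array medians subtracted (adjusted p = 0.00414), a second quantile normalization (0.000654), the array spread as a covariate (0.00197) and array weights (0.0333).

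**Figure D2:**
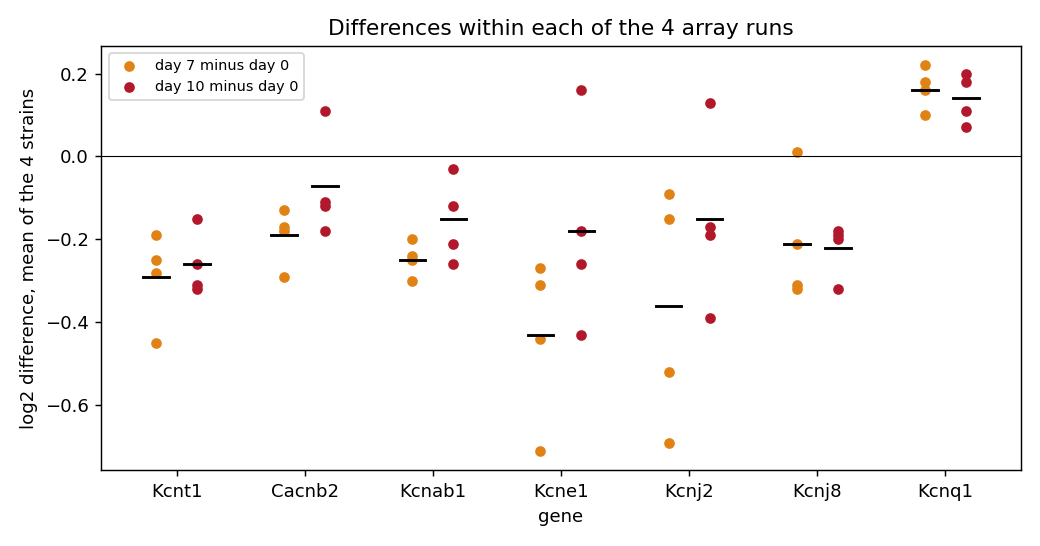
Log2 difference from day 0 in the mean of the 4 strains (y axis), with 1 point per array run and a bar for the mean of the 4 runs, for 7 channel genes (x axis) at day 7 (orange) and day 10 (red). Kcnt1, Cacnb2, Kcnab1, Kcne1 and Kcnj2 are below 0 at day 7 in 4 of 4 runs, Kcnj8 in 3, and Kcnq1 is above 0 in 4. The genes were chosen with the mean of these values known, and members not called, such as Clcn2 and Clcn7, were also below 0 in 4 of 4 runs.

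By family at day 7, the inward rectifiers had 0 of 11 members called and a median difference of -0.04, with 8 negative. The two-pore channels had 0 of 10 called and a median of 0.04. The voltage-gated potassium pores had 0 of 25 called and a median of 0.08, with 22 of 25 positive as deposited, 23 with array medians subtracted, 20 after a second quantile normalization and 15 with the array spread as a covariate. Among the calcium- or sodium-activated pores 1 of 6 fell (Kcnt1), among the potassium channel auxiliary subunits 2 of 14 (Kcnab1 and Kcne1) and among the calcium channel auxiliary subunits 1 of 13 (Cacnb2). The calcium channel alpha 1 subunits had 0 of 9 called, with differences from -0.09 to 0.05, and the ClC family 0 of 5, from -0.12 to 0.07. Over all 93 members the median was 0.01, against -0.03 over all probe sets, and 57 were positive as deposited, 72 with array medians subtracted, 55 after a second quantile normalization and 39 with the array spread as a covariate. As deposited, with all probe sets in 4 bins of equal size by signal, the dimmest 25% had 62.8% of probe sets positive (17 of 20 members), the next bin 54.2% (34 of 57 members), and the bins above it 22.6% and 23.6%. From dim to bright these shares were 51.5%, 56.2%, 52.2% and 49.2% after a second quantile normalization, and 82.0%, 69.2%, 42.4% and 45.0% with array medians subtracted.

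**Figure D3:**
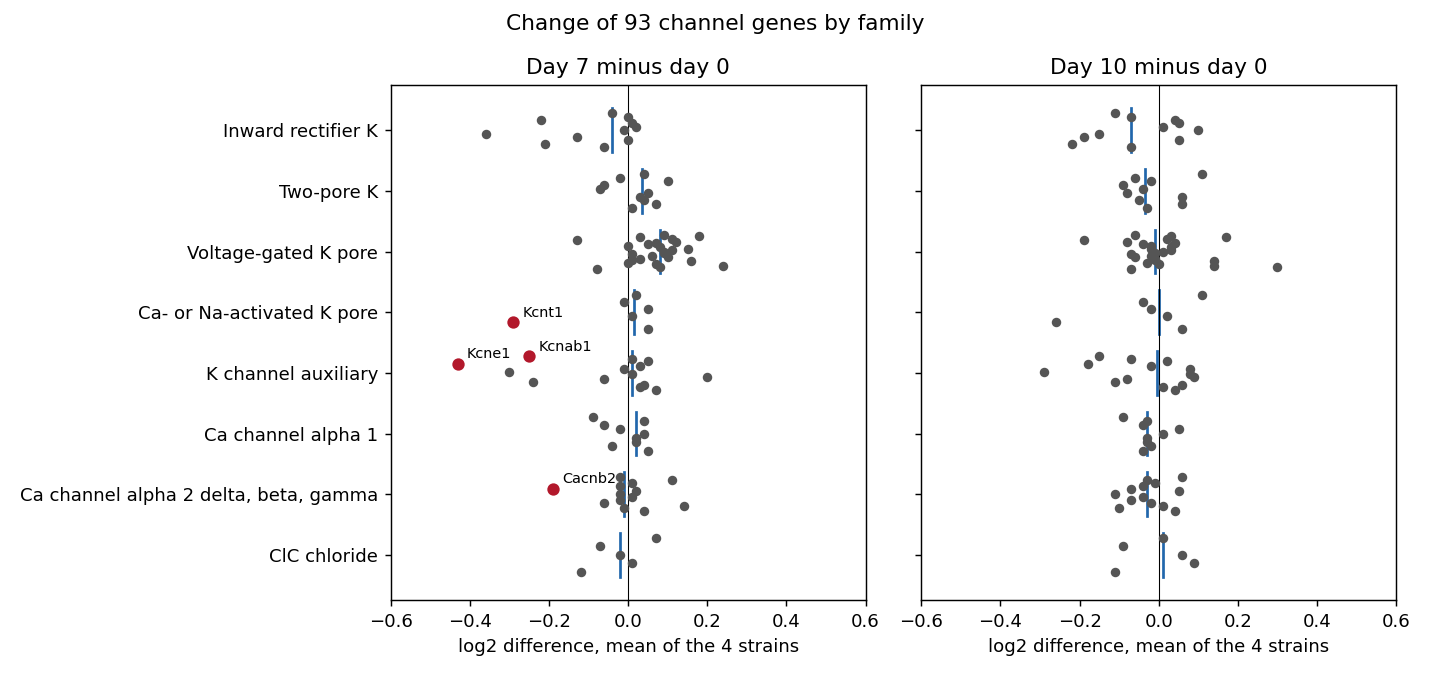
Log2 difference from day 0 in the mean of the 4 strains (x axis) for each of the 93 channel genes by family (rows), at day 7 (left) and day 10 (right). Blue bars mark family medians and red points the called genes; the 4 called genes are at day 7, all below 0, and the voltage-gated potassium pores lie mostly above 0 at day 7, with a median of 0.08.

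Of 28 channels with a known place in the kidney, 21 were measured here and only Kcne1 was called at day 7. Over all probe sets 4.94% were called in that comparison. The basolateral inward rectifiers of the distal nephron, Kcnj10 (Kir4.1) and its partner Kcnj16 (Kir5.1), differed from day 0 by -0.04 (95% interval -0.21 to 0.13) and -0.01 (-0.14 to 0.12). Kcnj15 (Kir4.2), a basolateral channel of the proximal tubule, differed by 0.02 (-0.12 to 0.17). Kcnj8 and Kcnj11, the pores of channels closed by ATP, stood at -0.21 (-0.36 to -0.05, adjusted p = 0.102) and 0.00 (-0.23 to 0.22), and Kcnj8 passed with array weights (adjusted p = 0.049). Each interval is for the single gene from the same fit, and those of Kcnj10, Kcnj8 and Kcnj11 include the -0.19 of Cacnb2.

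The two-pore channels Kcnk1, Kcnk2 and Kcnk3, which carry background potassium current, differed at day 7 by 0.04 (95% interval -0.10 to 0.18), 0.05 (-0.07 to 0.17) and 0.03 (-0.09 to 0.16). Kcnma1, the pore of the large-conductance channel that secretes potassium at high urine flow, differed by 0.02 (-0.07 to 0.11). Its smooth muscle beta subunit Kcnmb1 differed by 0.04 (-0.11 to 0.18), and Kcnn4, the intermediate-conductance calcium-activated channel, by 0.01 (-0.10 to 0.12). All 6 intervals include 0. The dimmest members Kcnt2, Kcnmb2, Kcnh7 and Kcnip1 stood at 0.05, 0.03, 0.03 and 0.01, and their array values stayed between 2.18 and 3.11 in all groups.

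The L-type calcium channel pores Cacna1c and Cacna1d, which open in arteriolar muscle, differed at day 7 by -0.06 (95% interval -0.13 to 0.00) and -0.02 (-0.12 to 0.08). The T-type pore Cacna1h differed by -0.04 (-0.14 to 0.05) and the alpha 2 delta subunit Cacna2d1 by -0.02 (-0.14 to 0.09). Of the ClC family, the plasma membrane channel Clcn2 stood at -0.07 (-0.19 to 0.06) and the endosomal exchanger Clcn4 at -0.02 (-0.16 to 0.12). Clcn5, the exchanger of proximal tubule endosomes whose loss causes Dent disease in humans, stood at 0.01 (-0.12 to 0.14). Clcn7, the lysosomal exchanger, had the lowest value of these at -0.12 (-0.26 to 0.01, adjusted p = 0.288). All these calcium and chloride channel intervals reach 0.

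After 10 days, 0 of 93 members were called in the mean of the strains, against 212 of all probe sets (2.41%). By limma, 9 members had an unadjusted p under 0.05 (9.68%), against 9.44% of all probe sets, and Kcnt1 had the smallest adjusted p. Kcnt1 ranged from 7.01 to 7.91 with a median of 7.62 at day 10, against 7.49 to 8.14 with a median of 7.82 at day 0. Day 10 arrays spread more widely and overlapped those of day 0 in each of the 4 strains. The Kcnt1 difference was -0.26 ± 0.079 (adjusted p = 0.0743), with -0.32, -0.15, -0.26 and -0.31 within runs 1 to 4. It passed with array medians subtracted (adjusted p = 0.016), a second quantile normalization (0.00997), the array spread as a covariate (0.0136) and array weights (0.0462). It also passed without FL day 10 replicate 1 (0.0237), FL day 10 replicate 2 (0.0475), LF day 10 replicate 3 (0.0358) or L day 10 replicate 3 (0.048), and without LF day 10 replicate 3 Kcnj8 passed as well (0.0483).

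The other genes that fell at day 7 had smaller differences at day 10, none past the threshold. Cacnb2 stood at -0.07 ± 0.053 (adjusted p = 0.818), Kcnab1 at -0.15 ± 0.071 (0.441) and Kcne1 at -0.18 ± 0.12 (0.797). Cacnb2 ranged from 4.69 to 5.33 and Kcne1 from 5.81 to 6.98 at day 10, overlapping their day 0 ranges of 4.84 to 5.37 and 6.20 to 7.02. Kcnj8, the ATP-sensitive pore of pericytes, stood at -0.22 ± 0.076 (adjusted p = 0.146) and Kcnma1 at 0.11 ± 0.045 (0.371). The days 7 and 10 share the day 0 arrays, so their values against day 0 are not independent. Family medians at day 10 lay between -0.07 for the inward rectifiers and 0.01 for the ClC family, and the voltage-gated potassium pores had 10 of 25 positive.

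Set against each other, day 10 and day 7 differed in 0 of 93 members and in 10 of all probe sets (0.114%). By limma, 8 members had an unadjusted p under 0.05 (8.60%), against 13.6% of all probe sets. The smallest adjusted p was that of Kcnj12 (Kir2.2), a strong inward rectifier of muscle, at 0.26 ± 0.086 (adjusted p = 0.270). It ranged from 6.62 to 8.03 with a median of 7.68 at day 10, against 6.79 to 7.67 with a median of 7.30 at day 7. Kcnj12 was called with array weights and 1 member was called without FL day 10 replicate 4. Over all probe sets, 21 were called with the run as a block, 50 with array weights and 64 without FL day 10 replicate 4, against 0 to 2 without any 1 replicate number in every group.

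Within single strains, 1 member was called in any of the 8 comparisons of a treated day with day 0, against 280 of all probe sets (3.18%). It was Kcnab1 in LF kidneys at day 7, at -0.56 ± 0.14 (adjusted p = 0.0236), the change of the arrays given above. The Kcnab1 call held with the run as a block (adjusted p = 0.00546) and was lost with the 5 lowest-spread arrays left out (0.066). It was also lost without LF day 0 replicate 1 (0.0967), LF day 0 replicate 2 (0.102), LF day 7 replicate 1 (0.0514) or LF day 7 replicate 3 (0.108). Without replicate 1, 2 or 3 of every group its adjusted p was 0.128, 0.214 and 0.275. In that comparison 2.26% of all probe sets were called. The other strain values of Kcnab1 at day 7 were -0.05 in F, -0.10 in L and -0.29 in FL, each ± 0.14. Whether the response differed between strains was tested itself by the strain by day interaction, where 0 members were called against 17 of all probe sets (0.193%). By limma's F test, 3 members had an unadjusted p under 0.05 (3.23%), against 6.23% of all probe sets. The smallest adjusted p was 0.629 for Cacna2d1, and Kcnab1 had 0.745. The LF response of Kcnab1 at day 7 minus that of L was -0.46 ± 0.20 (adjusted p = 0.952).

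The 4 strains differed in 11 of the 93 members in the mean of the 3 days, and Kcnab1 had the smallest p (adjusted p = 7.63e-13). The 11 were 11.8% of members, against 12.9% of all probe sets (1134). They were the inward rectifiers Kcnj8, Kcnj12 and Kcnj16, the two-pore channel Kcnk1, the voltage-gated pore Kcnq1, the calcium-activated pore Kcnma1, the auxiliary subunits Kcnab1 and Kcne3, and the calcium channel subunits Cacna1c, Cacna1h and Cacnb1. The ClC family had 0 of 5. In the carrier kidneys alone 3 members differed (3.23%), against 3.43% of all probe sets, and these were Kcnab1 (adjusted p = 1.64e-06), Kcnma1 (0.00705) and Kcnj16 (0.0281). With array weights 8 members differed in the carrier kidneys. Without replicate 2, 3 or 4 of every group the count for the mean of the days was 5 each time, and without replicate 2 or 3 the count for the carrier kidneys was 1. Counts over all probe sets were not made in these settings, so a shift particular to the channel genes was not tested.

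Strain differences are differences in signal of 1 probe set per gene, and sequence variants under the probes could not be looked up. Kcnab1 was lower in signal in FL and F than in LF and L kidneys. Over 12 arrays per strain its FL signal was 5.04 to 5.61 (median 5.32) and its F signal 4.91 to 5.82 (median 5.50), against 5.74 to 6.60 (median 6.19) in LF and 5.84 to 6.41 (median 6.15) in L. Every FL array lay below every LF and L array, every F array lay below every L array, and F reached into the LF range. FL minus LF was -0.88 ± 0.082 (adjusted p = 9.70e-11), a signal 0.544 of that in LF, and F minus L was -0.71 ± 0.082 (adjusted p = 1.69e-08). Within runs the FL minus LF difference was -0.92, -0.98, -0.81 and -0.80, and F minus L was -0.55, -0.60, -0.78 and -0.91. FL minus F was -0.10 ± 0.082 (adjusted p = 0.801) and LF minus L 0.07 ± 0.082 (adjusted p = 0.998). In carrier kidneys alone FL minus LF was -1.01 ± 0.14 (adjusted p = 5.18e-06).

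Kcnma1 (probe set 7129596), the large-conductance potassium pore, showed the same order of strains as Kcnab1 with a smaller gap. Its FL signal was 4.14 to 4.53 (median 4.34) and its F signal 4.24 to 4.61 (median 4.44), against 4.46 to 4.86 (median 4.69) in LF and 4.38 to 4.88 (median 4.64) in L. The ranges overlapped at their edges. FL minus LF was -0.33 ± 0.052 (adjusted p = 1.42e-05) with -0.35, -0.33, -0.24 and -0.39 within runs 1 to 4, and F minus L was -0.22 ± 0.052 (adjusted p = 0.00435). FL minus F and LF minus L were -0.08 and 0.03, neither past the threshold. The F minus L difference of Kcnma1 varied by run, with -0.05, -0.26, -0.46 and -0.10. In the carrier kidneys its call over the 4 strains was lost without replicate 2 (adjusted p = 0.317) or 3 (0.29) of every group.

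Kcnj16 (Kir5.1, probe set 7073290) was highest in LF kidneys. It ranged from 10.46 to 11.27 (median 10.93) in LF, against 10.24 to 10.84 (median 10.64) in F, 10.27 to 10.78 (median 10.50) in FL and 10.32 to 11.19 (median 10.68) in L. Carrier arrays of LF read 11.12, 10.97, 10.94 and 10.92, above every carrier array of the other strains, which read 10.32 to 10.84. FL minus LF was -0.39 ± 0.074 (adjusted p = 0.000203) with -0.49, -0.30, -0.37 and -0.40 within runs, and LF minus F was 0.28 ± 0.074 (adjusted p = 0.00941). LF minus L was 0.25 ± 0.074 and did not pass (adjusted p = 0.131). Kcnj10, which joins Kcnj16 in 1 channel, had strain medians of 8.62 in F, 8.49 in L, 8.43 in FL and 8.45 in LF and was not called. For Kcnj16 the carrier call was lost without FL day 0 replicate 3 (adjusted p = 0.0512) and without any 1 of the 4 LF day 0 arrays (0.0517 to 0.164).

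Kcnj12 and Kcnj8, inward rectifiers of muscle and of pericytes, were both lower in F than in L. The F signal of Kcnj12 was 6.62 to 7.57 (median 7.18) and its FL signal 6.79 to 7.81 (median 7.35), against 7.28 to 8.03 (median 7.64) in LF and 7.23 to 7.84 (median 7.52) in L. Overlap was partial, with the lowest arrays in F. F minus L was -0.39 ± 0.099 (adjusted p = 0.00735) and LF minus F 0.46 ± 0.099 (adjusted p = 0.00119). LF minus F was 0.26, 0.31, 0.57 and 0.71 within runs 1 to 4. Without replicate 3 of every group the Kcnj12 call over the 4 strains (adjusted p = 0.103) and its F minus L call (0.167) were lost. The F signal of Kcnj8 was 5.54 to 6.45 (median 6.0) and its FL signal 5.74 to 6.30 (median 5.89), against 5.73 to 6.65 (median 6.26) in LF and 6.02 to 6.59 (median 6.34) in L. FL minus L was -0.32 ± 0.088 (adjusted p = 0.0129) and F minus L -0.29 ± 0.088 (adjusted p = 0.0316), and both Kcnj8 calls were lost with array medians subtracted (adjusted p = 0.0679 and 0.0754). The F minus L call of Kcnj8 was also lost when any of 10 single arrays was dropped (0.0521 to 0.0758).

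Kcnk1, a two-pore channel, was higher in F than in L kidneys. It ranged from 8.09 to 8.42 (median 8.25) in F, against 7.43 to 8.17 (median 7.92) in L, with FL at 7.60 to 8.42 and LF at 7.74 to 8.21. Only the highest L arrays reached the F range. F minus L was 0.35 ± 0.079 (adjusted p = 0.00258), at 0.28, 0.30, 0.26 and 0.54 within runs. The Kcnk1 call over the 4 strains was lost without replicate 2 (adjusted p = 0.108) or 4 (0.0648) of every group. Kcnq1 was lowest in FL, at 6.92 to 7.72 (median 7.16), against 7.17 to 7.82 (median 7.58) in LF and 7.18 to 7.72 (median 7.58) in L. FL minus LF was -0.30 ± 0.074 (adjusted p = 0.0045), with -0.38, -0.45 and -0.42 in runs 2 to 4 and 0.04 in run 1, and the Kcnq1 strain call was lost with the 5 lowest-spread arrays left out (adjusted p = 0.116). Kcne3, a partner of Kcnq1 in gut epithelium, lay at 3.72 to 4.74 in FL and 4.2 to 4.89 in LF, with FL minus LF at -0.34 ± 0.096 (adjusted p = 0.0163). The Kcne3 difference was -0.76 in run 3 and -0.03 in run 2, and its adjusted p was 0.349 without replicate 3. The Kcne3 call over the 4 strains was lost when any of 7 single arrays was dropped (0.0502 to 0.0544). That call was also lost with array medians subtracted (adjusted p = 0.0915), the array spread as a covariate (0.0784) and the 5 lowest-spread arrays left out (0.26). The last of these settings also removed the FL minus LF call of Kcne3 (0.245).

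**Figure D4:**
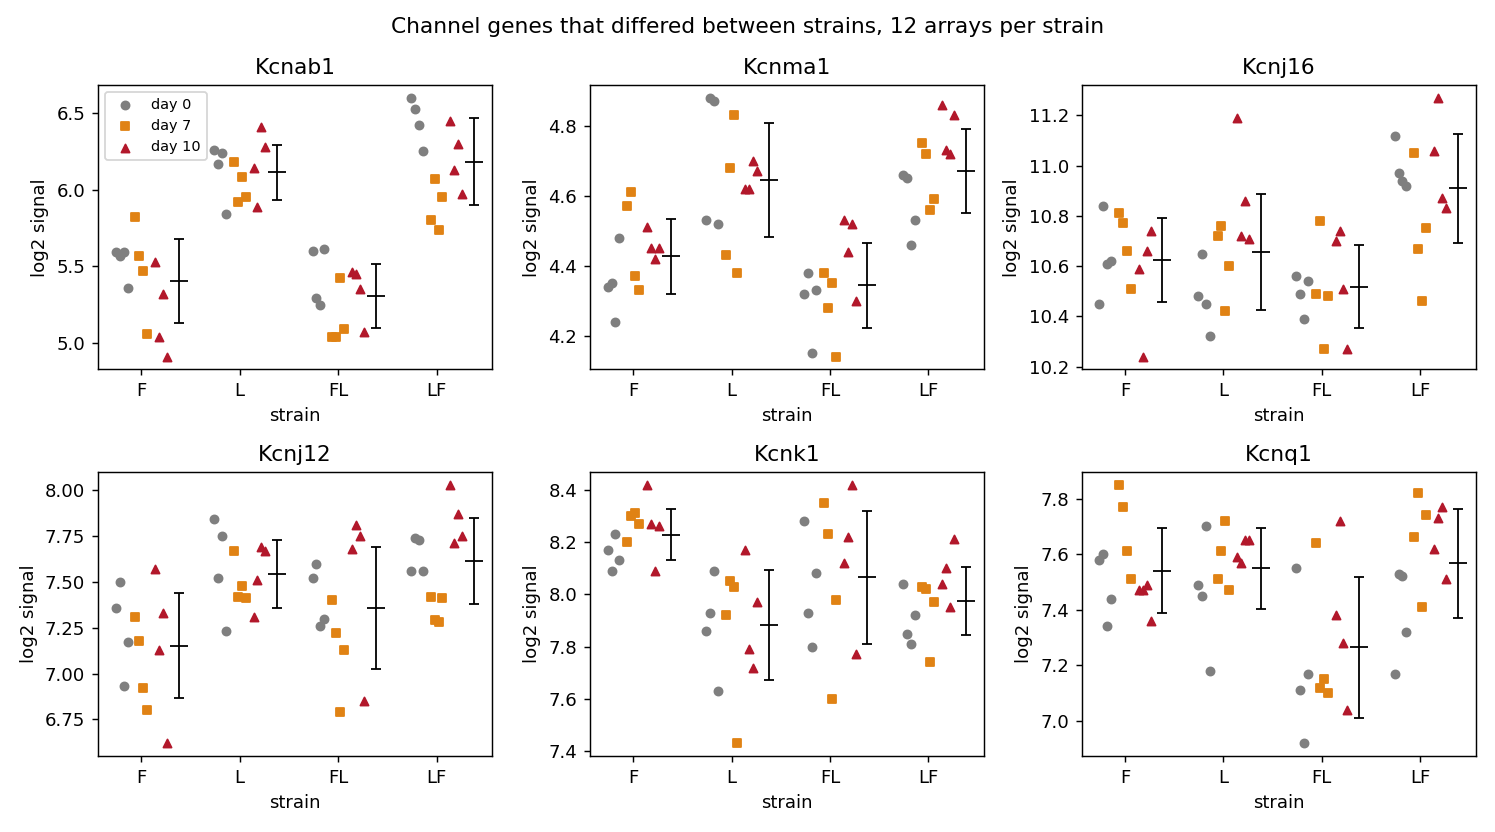
Log2 signal of 6 channel genes by strain (x axis), with 1 marker per array (grey circles day 0, orange squares day 7, red triangles day 10) and bars for the mean ± SD of 12 arrays. FL arrays of Kcnab1 (5.04 to 5.61) lie below all LF and L arrays, Kcnj16 is highest in LF, Kcnk1 highest in F and Kcnq1 lowest in FL.

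Of the calcium channel subunits, Cacnb1, a beta subunit best known from skeletal muscle, was lowest in LF kidneys, at 4.51 to 4.85 (median 4.74). The other strains had medians of 4.98 (F), 4.92 (L) and 4.97 (FL). FL minus LF was 0.25 ± 0.055 (adjusted p = 0.00123) with 0.19, 0.27, 0.21 and 0.34 within runs. The Cacnb1 call over the 4 strains was lost without replicate 2 (adjusted p = 0.0993) or 4 (0.0705) of every group. The T-type pore Cacna1h lay at 5.55 to 5.96 in LF and 5.68 to 6.20 in L, and LF minus L was -0.22 ± 0.055 (adjusted p = 0.0426). The L-type pore Cacna1c lay at 4.55 to 4.88 in LF and 4.50 to 4.79 in F, and LF minus F was 0.12 ± 0.037 (adjusted p = 0.0498). Both pair differences had their sign in 4 of 4 runs, and the calls over the 4 strains of Cacna1h and Cacna1c were lost with array medians subtracted (adjusted p = 0.0724 and 0.562). That of Cacna1h was also lost with a second quantile normalization (0.0643) and when any of 6 single arrays was dropped (0.0521 to 0.0753). That of Cacna1c was also lost without LF day 10 replicate 1 (0.0505). The Cacna1h and Cacna1c pairs were lost with array medians subtracted (0.0909 and 0.323) and a second quantile normalization (0.0782 and 0.0767). Of the pairs, the Cacna1h pair was lost when any of 20 arrays was dropped (0.0508 to 0.119) and the Cacna1c pair for 37 arrays (0.0502 to 0.11).

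By pair in the mean of the days, FL minus LF had 7 members called (10.7% of all probe sets), LF minus F 7 (7.57%), F minus L 6 (7.32%) and FL minus L 4 (9.67%). FL minus F had 0 members called (0.352% of all probe sets) and LF minus L had 1, Cacna1h (0.693%). The pairs share strains, so their counts are not independent.

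**Figure D5:**
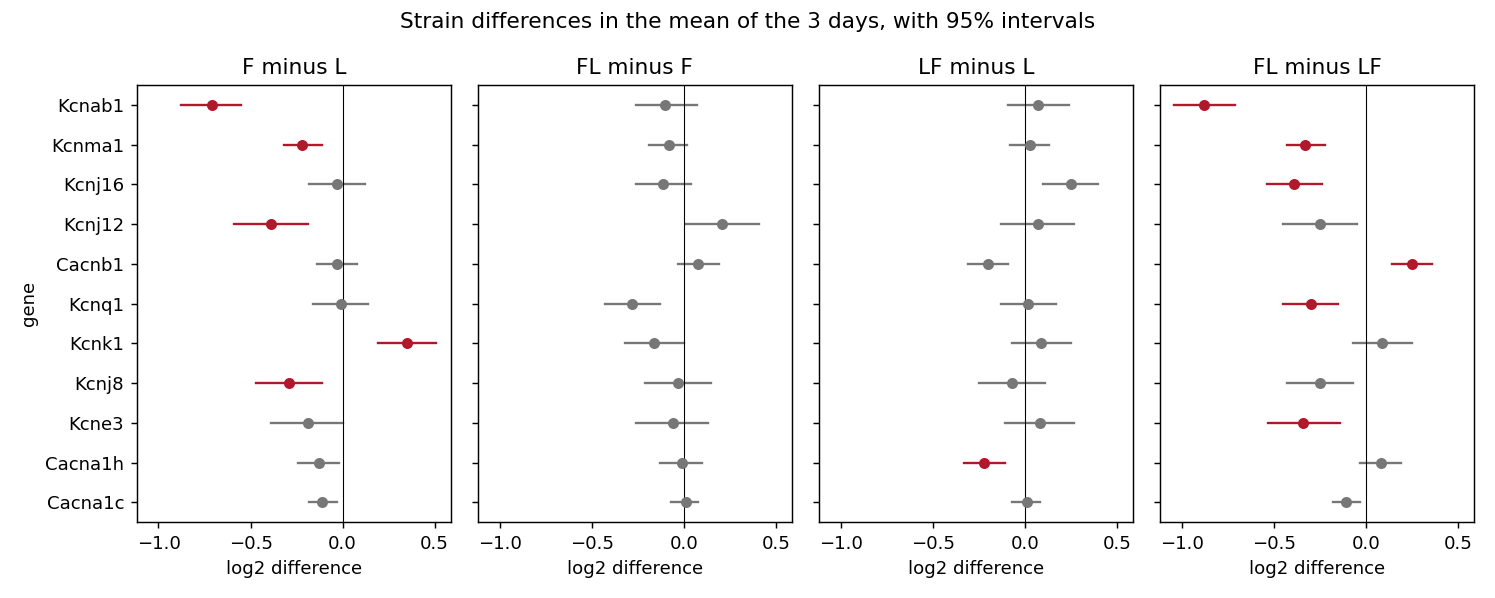
Log2 difference between strains in the mean of the 3 days (x axis) with its 95% interval, for the 11 channel genes that differed between strains (rows), in 4 of the 6 pairs. Red marks called differences; FL minus F has none, LF minus L has Cacna1h, and Kcnab1 is at -0.71 for F minus L and -0.88 for FL minus LF.

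Among other ion transport genes at day 7, Calb1 and Slc8a1 of the distal tubule had the largest falls. Of 42 measured pumps, exchangers and other channels, 7 fell and 1 rose, and of 12 measured partners and regulators of renal channels 2 fell and 0 rose, against 3.75% of all probe sets lower and 4.94% called either way. The calcium-binding protein Calb1 and the sodium-calcium exchanger Slc8a1 of the distal tubule stood at -0.89 ± 0.12 and -0.90 ± 0.13, and the gamma subunit of the epithelial sodium channel Scnn1g at -0.35 ± 0.079. Slc12a1, the salt carrier of the thick ascending limb, stood at -0.25 ± 0.056. The mineralocorticoid receptor Nr3c2, which controls potassium secretion, stood at -0.31 ± 0.071 (adjusted p = 0.00495), and the calcium-sensing receptor Casr at -0.25 ± 0.066 (adjusted p = 0.0193). Slc12a1, Slc12a3, Slc8a1, Calb1, Scnn1b and Scnn1g are also on the lists of cell type markers. At day 10 the counts were 6 lower and 2 higher of 42, and 1 lower and 0 higher of 12, against 2.41% of all probe sets called either way.

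Cell type markers called lower at day 7 included 4 of 8 measured for the loop and distal convoluted tubule and 6 of 10 for the collecting duct. Lower calls were also made for 2 of 7 proximal tubule, 1 of 5 podocyte, 2 of 2 endothelial and 3 of 8 white blood cell markers. Over all probe sets the lower calls were 3.75% (330). Smooth muscle, pericyte and fibroblast markers rose in 3 of 9 and nerve markers in 1 of 9, and 0 of 5 skeletal muscle, 0 of 6 adipose and adrenal and 0 of 2 red blood cell or platelet markers moved. The mean level of the loop and distal list was 8.84 to 9.37 over the day 7 arrays and 9.23 to 9.70 over those of day 0. The mean level of the collecting duct list was 7.48 to 7.98 at day 7 and 7.55 to 8.25 at day 0, and that of the smooth muscle list 6.43 to 7.08 at day 7 and 6.27 to 6.91 at day 0. Between strains, 5 of 10 collecting duct, 4 of 9 smooth muscle, 3 of 8 loop and distal and 3 of 7 proximal tubule markers differed, against 12.9% of all probe sets. So did 1 of 2 endothelial, 1 of 8 white blood cell, 1 of 9 nerve and 1 of 2 red blood cell or platelet markers, and 0 of 5 podocyte, 0 of 5 skeletal muscle and 0 of 6 adipose and adrenal markers. The smooth muscle list lay at 6.27 to 6.86 in FL, 6.47 to 7.03 in LF, 6.43 to 7.08 in F and 6.48 to 6.99 in L, overlapping throughout. The part of these markers in the channel differences was not tested.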

How the data were processed

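Per the labels, kidney RNA was depleted of ribosomal RNA, converted to biotin-labelled sense targets and hybridised to whole-transcript arrays. The deposited values are log2 signals, 1 per probe set. RMA and limma are named in the submitters' processing notes, and versions, probe annotation and probe set filter are not given in the sources used here. The 48 columns were assigned to strain, day and replicate from their labels, and none was unmapped (0). Members were named from the platform annotation, and all 93 matched the rat reference by Entrez identifier.

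In R 4.3.3, limma 3.58.1 fitted 1 mean per group to the 48 arrays, with 36 residual degrees of freedom and 3.69 from the prior. From this fit 35 contrasts and 3 moderated F tests were read, each adjusted over 8797 probe sets by Benjamini and Hochberg at 0.05. Intervals are 95% intervals, and precision is limited by 4 arrays per group. P-values measure the spread between arrays, which the series calls biological replicates.

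Replicate numbers in the array names were taken as array runs. Residuals of same-numbered arrays of different groups had a mean correlation of 0.0942 (264 pairs), against -0.0314 for different numbers (792 pairs), so the run as a block is printed where it changes a call or moves a count by over 1.5 times.

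Alternatives were the block, array medians subtracted, a second quantile normalization, the array spread as a covariate, array weights, the 5 lowest-spread arrays left out, the dimmest 25% of probe sets or those without 1 symbol left out, and single arrays or replicates left out.

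The 31 members described with values are those past the threshold in a strain-mean, within-strain or F test, not in a single strain pair (smallest p first), the 8 with the highest and the 4 with the lowest mean signal, and the measured channels of a list of 28 with a known place in the kidney. Kcnj2 is named as the member just outside the threshold at day 7. The members, lists and rules were chosen with earlier results of these data known. The scripts were tested on simulated data.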

Additional observations from a re-analysis of the deposited data

Results flagged for a closer look

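In groups of 4 arrays, a single array was set apart when its gap to the nearest other exceeded the 95% critical value of Dixon's test, taken as a share of the group's range. This was tested for the 31 named members in 12 groups each, and 20 of 372 groups were past it, where chance alone gives about 5% of groups. The array with most such values was FL day 7 replicate 3, with 3. Among the inward rectifiers and two-pore channels these were Kcnj8 in FL day 7 replicate 3 at 6.30 (others 5.74 to 5.83), Kcnj12 in FL day 10 replicate 4 at 6.85 (others 7.68 to 7.81) and Kcnk3 in L day 7 replicate 3 at 6.04 (others 6.25 to 6.28). Among the other potassium channel pores these were Kcnq1 in F day 10 replicate 4 at 7.36 (others 7.47 to 7.49) and FL day 7 replicate 1 at 7.64 (others 7.10 to 7.15), Kcnn4 in L day 7 replicate 1 at 5.0 (others 4.57 to 4.62) and L day 10 replicate 2 at 4.47 (others 4.72 to 4.76) and Kcnt2 in FL day 7 replicate 2 at 2.64 (others 2.52 to 2.53). Among the potassium channel auxiliary subunits these were Kcnab1 in F day 0 replicate 4 at 5.36 (others 5.57 to 5.59) and FL day 7 replicate 3 at 5.42 (others 5.04 to 5.09), Kcnip1 in L day 7 replicate 1 at 2.62 (others 2.36 to 2.40) and LF day 7 replicate 4 at 2.69 (others 2.50 to 2.51) and Kcnmb2 in FL day 7 replicate 3 at 2.28 (others 2.50 to 2.53). Among the calcium channel subunits these were Cacna1d in F day 0 replicate 3 at 4.79 (others 4.93 to 4.95), Cacna1h in L day 7 replicate 3 at 6.07 (others 5.82 to 5.86), Cacna2d1 in LF day 10 replicate 1 at 3.89 (others 3.57 to 3.58) and Cacnb1 in F day 10 replicate 3 at 4.56 (others 4.98 to 5.03) and L day 10 replicate 1 at 4.73 (others 4.90 to 4.92). In the ClC family these were Clcn2 in FL day 10 replicate 4 at 6.58 (others 7.07 to 7.15) and Clcn7 in L day 0 replicate 4 at 7.11 (others 7.47 to 7.53).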

How the results depend on the processing

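Treatment calls rested on small differences. At day 7 the count of 4 members became 7 with the replicate block (1 higher, 976 of all probe sets) and 10 with array weights (3 higher, 1128). It became 2 with the array spread as a covariate (493), namely Cacnb2, lower, and Kcnq1, higher. With the 5 lowest-spread arrays left out it was 1 (300), and 0 to 7 when arrays or replicates were left out. The count stayed 4 with array medians subtracted (566) or a second quantile normalization (634), with Kcnq1, higher, in place of Kcne1. The count was 1 without replicate 1 (256 of all probe sets), FL day 0 replicate 1 (302) or LF day 0 replicate 2 (284). It was also 1 without LF day 7 replicate 3 (306) or F day 7 replicate 4 (289). It was 2 without FL day 0 replicate 4 (332), 0 without replicate 2 (99) or 3 (156), and 7 without L day 0 replicate 4 (720). At day 10 the main fit called 0 members and 212 of all probe sets. The 0 became 1 with array medians subtracted (357 of all probe sets) or a second quantile normalization (407). It also became 1 with the array spread as a covariate (508) or array weights (306), and 0 to 2 in the leave-outs. Day 10 against day 7 gave 1 with array weights and 0 to 1 in the leave-outs. Within strains the count of 1 became 2 with array medians subtracted, a second quantile normalization, the array spread as a covariate or array weights, 0 with the 5 lowest-spread arrays left out, and 0 to 3 in the leave-outs, with 3 without replicate 4. Between strains the count was 8 with array weights in carrier kidneys, with leave-outs of 1 to 4, and 5 to 13 in leave-outs for the mean of the days. For the within-strain and between-strain tests, counts over all probe sets were not made in these settings. The interaction gave 0 throughout.

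No value changed direction past the threshold. Of single-gene results outside the leave-outs, 816 kept their side of the threshold, 36 lost it and 10 gained it. In the leave-outs 5385 kept it, 278 lost it and 5 gained it. The block moved no other count of members by over 1.5 times, and the cause of each change was not tested.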
